A study of Homo sapiens with 8 samples.

Results

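The response to miR-29a-3p was measured in the libraries that the labels assign to A549, by comparing 2 libraries of cells given miR-29a-3p with 2 libraries of cells given a control microRNA. The members were all 27756 genes that the deposited table lists for A549, of 31461 listed for either line. A549 is a human lung adenocarcinoma line, and the labels give it as wild type and as a lung cancer cell. The series holds 8 libraries of total RNA. The other 4 are labelled H1299, another human lung cancer line, given the same microRNAs. The series' design text states the purpose as a search for genes targeted by miR-29a-3p in lung cancer cells. No label gives a dose or a time after transfection, no untransfected library was analysed here, and nothing says that the 2 libraries of a group came from separate cultures. The p-values therefore reflect only how far these libraries differ among themselves, a spread that may be technical.

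The A549 label went against a defining gene of the line. CDKN2A, a cell cycle inhibitor whose gene is deleted in A549, stood at 23.8 and 24.8 FPKM in the controls labelled A549 and at 27.8 and 28.4 FPKM after miR-29a-3p. In the 4 libraries labelled H1299 it stood at 0.0513 to 0.112 FPKM. FPKM is the number of fragments per kilobase of transcript, scaled to the total of fragments mapped. The sum of 8 genes abundant in A549, among them ALDH1A1, AKR1B10 and NQO1, was 191 to 206.5 FPKM in the libraries labelled A549 and 1159 to 2599.9 FPKM in those labelled H1299. The groups are called A549-labelled and H1299-labelled throughout, and every direction given under the first label holds for the libraries so labelled. Both controls and both miR-29a-3p libraries stood on the same side in these checks. Of the markers of other cells, all 9 fibroblast genes and all 5 listed endothelial genes lay under 1 FPKM in both A549-labelled groups. The 6 listed leukocyte genes summed to 19.1 to 24.1 FPKM, and 4 of them lay under 1 FPKM. The estimated depth of the A549-labelled libraries was 12379080 to 15009567 fragments, and 12718 to 12837 genes reached 1 FPKM in each.

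MicroRNAs are short RNAs that guide Argonaute proteins to messenger RNAs, mostly through sites in the 3′ untranslated region (UTR) that pair with bases 2 to 8 of the microRNA, its seed. A bound messenger RNA is translated less and decays faster. The miR-29 family is known for repressing collagens and other extracellular matrix genes in many tissues. The 3 mature microRNAs of the family are shown because they share a seed, so that a site for one is a site for all. They are RefSeq's sequences (GRCh38.p14), with the seed in capitals. The gene of miR-29a-3p lies on chromosome 7, where the mature sequence spans bases 130876748 to 130876769 of the minus strand.
hsa-miR-29a-3p: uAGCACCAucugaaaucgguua
hsa-miR-29b-3p: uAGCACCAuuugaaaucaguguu
hsa-miR-29c-3p: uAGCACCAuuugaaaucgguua

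The table does not measure the mature microRNA. MIR29B2CHG, the host gene of miR-29b and miR-29c, stood at 0.0173 and 0.0559 FPKM in the controls and at 0.0770 and 0.0356 FPKM in the miR-29a-3p libraries, under the filter on low values.

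MiR-29a-3p was accompanied by many modest changes of near equal number in both directions. Of the 14635 genes tested, 1068 rose (7.3%) and 1268 fell (8.66%), which makes 16.0% called. Calls rest on limma's moderated test of log2(FPKM + 1), a scale that understates the change of low genes, at a Benjamini-Hochberg adjusted p below 0.05. Only 41 of the called genes rose at least 2-fold and 56 fell at least 2-fold. The median log2 fold change over all genes tested was 0.001, with quartiles of -0.141 and 0.143. In bulk RNA, fewer cells of a kind and less RNA per cell cannot be told apart. The count of 2336 called genes was 1180 without control 1, 1066 without control 2, 1144 without miR-29a-3p library 1 and 1212 without miR-29a-3p library 2. A called gene named below kept its call without each of these libraries unless a loss is given beside it.

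The filter on low values kept genes at 1 FPKM or more in at least 2 of the 8 libraries. A gene could thus pass this filter on its H1299-labelled values. Of the 27756 genes listed, 14595 passed it and 13161 did not. The latter had a median group mean of 0.0915 FPKM. A further 40 tested genes are listed only for H1299, were taken as 0 here and none of them was called. Calls were more frequent at higher levels up to 200 FPKM. Among genes whose larger group mean lay under 1 FPKM, 52 of 1528 were called, against 573 of 4019 from 2 to 5 FPKM and 757 of 3101 from 10 to 50 FPKM. The counts were 149 of 468 from 50 to 200 FPKM and 31 of 121 above 200 FPKM. Protein-coding genes made up most of the calls, with 892 higher and 1166 lower of 11788. Called antisense genes were mostly higher, with 37 higher (6.28%) and 9 lower (1.53%) of 589, against 7.3% and 8.66% of all genes tested. Their rises were thus no more frequent than over all genes tested, and their falls were fewer. Among 122 processed transcripts 17 were higher (13.9%) and 3 lower (2.46%). Among 113 unprocessed pseudogenes 9 were higher (7.96%) and 0 lower. Values of antisense genes are uncertain because the strand setting is not given in the sources used here, and those of pseudogenes because they share reads with their parent genes.

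Genes with a miR-29 seed match in the 3′ UTR made up a large share of those that fell. The motifs searched, on the strand of the messenger RNA, were TGGTGCTA (8mer), TGGTGCT (7mer-m8), GGTGCTA (7mer-A1) and GGTGCT (6mer), and a gene was put in the class of its longest match, in that order. Of 11628 protein-coding genes tested with an annotated 3′ UTR, 1160 fell (9.98%) and 883 rose, with a median log2 fold change of -0.004. Among the 349 genes with an 8mer, 111 fell (31.8%) and 11 rose, with a median of -0.163. The 1259 genes with a 7mer-m8 had 274 that fell (21.8%), 59 that rose and a median of -0.102. The 290 genes with a 7mer-A1 were close to them, with 64 that fell (22.1%) and a median of -0.084. A 6mer alone went with 193 falls among 1477 genes (13.1%) and a median of -0.017. Without any such match, 518 of 8253 genes fell (6.28%), 697 rose and the median was 0.015. A match is a description of the sequence and does not show binding.

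**Figure D1:**
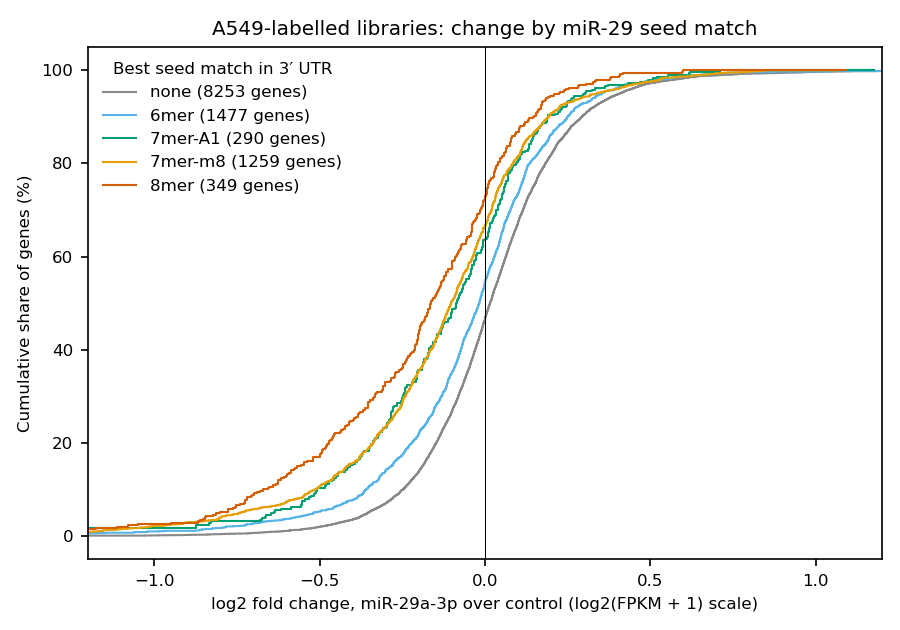
Cumulative share of protein-coding genes (vertical axis, %) by log2 fold change of miR-29a-3p over control in the A549-labelled libraries (horizontal axis, log2(FPKM + 1) scale), with 1 line for each class of best seed match in the 3′ UTR. The 8mer line lies furthest to the left (median -0.163), followed by 7mer-m8 (-0.102), 7mer-A1 (-0.084), 6mer (-0.017) and genes with no match (0.015), and 45 genes lie outside the axis.

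The share of falling genes was higher where a gene held more matches. With 1 site of the 8mer or 7mer-m8 class 23.2% of 1355 genes fell, with 2 sites 25.0% of 200 genes, and with 3 or more sites 37.7% of 53 genes. Read the other way, 32 of the 53 protein-coding genes that fell at least 2-fold held an 8mer or 7mer-m8 (60.4%), against 13.8% of all 11628. Of the 1107 that fell by less, 31.9% held one. The share was 7.98% among the 852 genes that rose by less than 2-fold and 6.45% among the 31 that rose at least 2-fold. No test was made of these shares, since genes are not replicates.

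Long 3′ UTRs hold more matches by their length alone, and the median 3′ UTR had 2684 bases in the 8mer class and 673 bases in genes with no match. Within bins of similar length the share that fell still differed. Among 3′ UTRs under 500 bases, 34.6% of the 107 genes holding an 8mer or 7mer-m8 fell, against 5.7% of those with no 6mer. From 2000 to 4000 bases the shares were 27.4% and 7.04%, and above 4000 bases 16.1% and 7.12%. The level of the gene moved with the share as well. Genes whose larger group mean lay from 1 to 5 FPKM fell in 17.8% of cases with an 8mer or 7mer-m8 and in 4.34% without a 6mer. From 5 to 20 FPKM the shares were 30.8% and 7.79%, and above 20 FPKM 45.7% and 10.4%.

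The 8mer sites of the 6 called genes of that class that fell most are shown to let the pairing be read against the seed above. Each line is the strand of the messenger RNA, with the site in capitals, from GENCODE 29 transcripts on GRCh38. FBN1 has a second site of the 7mer-m8 class, given as FBN1 7mer-m8.
MYBL2: ctgtgggcggctccTGGTGCTAacaa
PPIC: tccccttcctcaagTGGTGCTAtttt
CLDN1: ctggatttgagtctTGGTGCTAtcaa
FBN1: ttatggtacctattTGGTGCTAgtaa
FBN1 7mer-m8: gtgagggtttgtaaTGGTGCTtatt
LAMA2: tttctgtattcagaTGGTGCTAattc
BAK1: acctcaacattgcaTGGTGCTAgtgg

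MYBL2, a transcription factor that drives genes of late S phase and mitosis, carries its site at bases 193 to 200 of a 3′ UTR of 409 bases (chr20:43716266-43716291, plus strand). Its level was 58.4 and 57.2 FPKM in the controls and 20.4 and 21.0 FPKM after miR-29a-3p. Both treated libraries lay far below both controls, and the log2 fold change was -1.44 ± 0.075 (SE, adjusted p = 0.000314, limma). PPIC, a cyclophilin of the secretory pathway that isomerises proline bonds, has its site at bases 234 to 241 of 625 (chr5:123023630-123023655, minus strand). It went from 21.8 and 23.8 FPKM to 8.43 and 9.23 FPKM (log2 fold change -1.28 ± 0.072, adjusted p = 0.000366). The groups did not overlap, as in 59.0% of all genes tested.

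CLDN1, a sealing protein of tight junctions, has the site in the far part of its 3′ UTR, at bases 1638 to 1645 of 2576 (chr3:190306628-190306653, minus strand). The controls held 11 and 11.6 FPKM and the treated libraries 4.28 and 4.03 FPKM, which made -1.26 ± 0.049 on the log2 scale (adjusted p = 0.00014). FBN1, the main protein of elastic microfibrils, has an 8mer at bases 416 to 423 of 2684 (chr15:48410563-48410588, minus strand) and a 7mer-m8 at 671 to 677 (chr15:48410309-48410333). Its level fell from 12.4 and 11.5 FPKM to 4.57 and 4.56 FPKM (log2 fold change -1.22 ± 0.057, adjusted p = 0.000222). In both genes each treated library lay under every control.

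LAMA2 encodes a laminin chain of basement membranes and has its site at bases 132 to 139 of a short 3′ UTR of 222 (chr6:129516465-129516490, plus strand). Values of 8.07 and 7.88 FPKM in the controls stood against 3.21 and 2.75 FPKM after miR-29a-3p (log2 fold change -1.18 ± 0.075, adjusted p = 0.000559). BAK1, which permeabilises the mitochondrial membrane in apoptosis, has the site at bases 188 to 195 of 1251 (chr6:33573604-33573629, minus strand). It stood at 15.4 and 14.1 FPKM in the controls and at 6.28 and 6.30 FPKM in the treated libraries (log2 fold change -1.11 ± 0.10, adjusted p = 0.00178). The next lowest 8mer genes were PMP22, a membrane protein of myelin and epithelia, at -1.05, and P3H1, a collagen prolyl hydroxylase, at -0.87 on the log2 scale (adjusted p = 0.00609 and 0.00173).

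An 8mer did not go with a fall in every gene. PLCG2, a phospholipase that relays signals from immune receptors, holds 2 8mers and 1 7mer-m8 in its 3′ UTR and rose. Its values were 2.37 and 2.15 FPKM in the controls and 6.13 and 5.75 FPKM after miR-29a-3p (log2 fold change 1.09 ± 0.063, adjusted p = 0.000389). TNFAIP3, a deubiquitinase that restrains NF-kB, holds 1 8mer and rose from 4.35 and 4.26 FPKM to 7.09 and 6.92 FPKM (log2 fold change 0.59, adjusted p = 0.00665). ZMYM2 and STK35, a zinc finger protein and a kinase with an 8mer each, were higher by 0.42 and 0.28 (adjusted p = 0.0136 and 0.0203). The ZMYM2 call was lost without any one A549-labelled library (adjusted p of 0.0541 to 0.0705). That of STK35 was lost without control 1, control 2 or miR-29a-3p library 1 (adjusted p of 0.0618 to 0.0886).

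The 15 lowest called genes with at least 5 FPKM in one group included matrix, cytoskeletal and cell cycle genes. LOXL2, a lysyl oxidase that cross-links collagen, had 23.5 and 23.7 FPKM in the controls and 5.93 and 6.26 FPKM after miR-29a-3p (log2 fold change -1.79 ± 0.053, adjusted p = 4.92e-05). It holds 1 7mer-m8, as do NID1, RCC2, CCDC167 and H2AX, while S100A16 and CDK6 hold 2. RCC2, a regulator of mitotic exit and of cell spreading, stood at 42.0 and 41.7 FPKM in the controls and at 15.2 FPKM in both treated libraries (-1.40 ± 0.039, adjusted p = 4.92e-05). H2AX, the histone variant phosphorylated at DNA breaks, had 105 and 104 FPKM against 40.2 and 42.5 (-1.32 ± 0.046, adjusted p = 8.52e-05). In each of these genes the treated libraries agreed closely and lay under both controls.

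Several of the lowest genes held no 8mer or 7mer-m8 in the 3′ UTR searched. MMP14, a membrane-bound collagenase, holds a 6mer only and went from 38.9 and 38.4 FPKM to 13.6 and 12.1 FPKM (log2 fold change -1.52 ± 0.071, adjusted p = 0.00022). SEMA3C, a secreted guidance protein, also holds a 6mer and went from 13.2 and 14 FPKM to 4.60 and 4.68 FPKM (-1.37 ± 0.047, adjusted p = 8.52e-05). PRMT6, an arginine methyltransferase, and SERPINH1, the collagen chaperone HSP47, hold a 7mer-A1. PRMT6 had 10.9 and 12.3 FPKM against 3.36 and 4.29, and SERPINH1 18.9 and 19.2 FPKM against 5.66 and 7.47. Their log2 fold changes were -1.39 ± 0.11 and -1.42 ± 0.15 (adjusted p = 0.0011 and 0.00283). The largest fall, that of the immediate early gene IER2 from 38.6 and 38.3 FPKM to 6.78 and 6.05 FPKM, had a wide error (-2.41 ± 0.61, adjusted p = 0.0449). Its 2 values agreed within each A549-labelled group, but the H1299-labelled libraries, which share the estimate of spread, ranged from 3.12 to 15.7 FPKM. Its call was lost without any one A549-labelled library (adjusted p of 0.141 to 0.154).

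**Figure D2:**
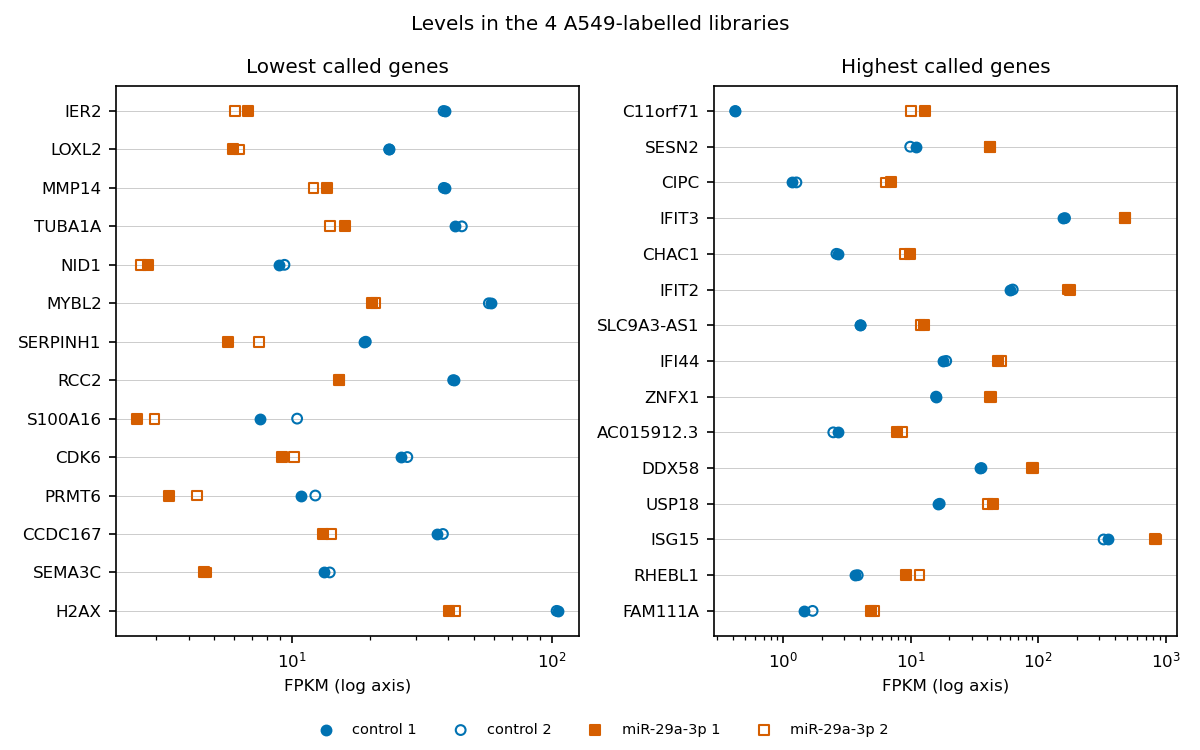
FPKM (horizontal log axis) of 14 of the 15 lowest and the 15 highest called genes in each A549-labelled library, with circles for the controls and squares for the miR-29a-3p libraries, filled for library 1 and open for library 2. Groups do not overlap in any gene shown, which the choice of genes required, and the libraries of a group lie close together, as for RCC2 at 42.0 and 41.7 FPKM against 15.2 FPKM.

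Of the 15 highest called genes, 9 belong to the lists of interferon and stress response genes described further on. SESN2, which senses leucine and restrains the growth kinase complex mTORC1, rose from 10.9 and 9.90 FPKM to 42.1 and 41.9 FPKM (log2 fold change 1.92 ± 0.053, adjusted p = 4.92e-05). CIPC, a repressor of the circadian CLOCK protein, rose from 1.18 and 1.27 FPKM to 7.01 and 6.37 FPKM (1.79 ± 0.16, adjusted p = 0.00159). FAM111A, a protease that restricts viruses, rose from 1.46 and 1.70 FPKM to 4.90 and 5.18 FPKM (1.23 ± 0.10, adjusted p = 0.00131), and RHEBL1, a relative of the mTORC1 activator RHEB, from 3.68 and 3.84 FPKM to 9.25 and 11.7 FPKM (1.26 ± 0.10, adjusted p = 0.00113). None of SESN2, FAM111A and RHEBL1 holds a 6mer in its 3′ UTR, and CIPC holds a 6mer. The antisense gene SLC9A3-AS1 rose from 4.03 and 4.04 FPKM to 12.6 and 11.9 FPKM (1.40 ± 0.052, adjusted p = 0.000119), with the limit on antisense values given above. The largest fold change was that of a gene listed as C11orf71, an uncharacterised gene, under an identifier (ENSG00000282682) that GENCODE 29 does not place. It had 0.421 and 0.420 FPKM in the controls and 12.9 and 9.99 FPKM after miR-29a-3p (3.12 ± 0.61, adjusted p = 0.0205), and lost its call without any one A549-labelled library (adjusted p of 0.0752 to 0.0989). The H1299-labelled controls, which share the estimate of spread, had 1.21 and 8.80 FPKM for it. A second identifier of the symbol C11orf71 (ENSG00000180425) was called lower, with 3.45 and 3.43 FPKM against 1.19 and 1.66, so reads of the locus may be split between the 2 identifiers. The lncRNA AC015912.3 had 2.70 and 2.47 FPKM against 7.85 and 8.59 (1.36 ± 0.27, adjusted p = 0.0221). It lost its call without any one A549-labelled library, and its H1299-labelled controls had 10.3 and 4.94 FPKM.

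Collagens are trimers of chains that form fibrils or networks. Of 19 collagen genes tested, 8 fell (42.1%) and 2 rose (10.5%), against 8.66% and 7.3% of all genes tested. Their median log2 fold change was -0.14, against 0.001 over all genes tested. Between 4 and 5 fell and 0 to 2 rose when any one A549-labelled library was left out. Only 10 of the 19 reached 1 FPKM in at least 2 of the 4 A549-labelled libraries, and the others passed the filter with the H1299-labelled values. When the A549-labelled libraries were fitted alone, 5 of these 10 fell and 0 rose, with a median of -0.31. COL5A2, a chain of minor fibrils with an 8mer, went from 2.14 and 2.35 FPKM to 0.714 and 0.378 FPKM (-1.08 ± 0.12, adjusted p = 0.00364). COL6A1 and COL6A2, chains of beaded filaments, went from 17.8 and 17.2 to 10.9 and 10.8 FPKM and from 20.4 and 21.1 to 14.5 and 14.4 FPKM (-0.64 and -0.49, adjusted p = 0.00169 and 0.00205). COL4A5, a chain of basement membranes with an 8mer, went from 7.58 and 7.21 to 4.81 and 4.69 FPKM (-0.55 ± 0.049, adjusted p = 0.00156). In all 4 the treated libraries lay under both controls, and the groups did not overlap in 59.0% of all genes tested.

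The collagens best known as miR-29 targets were scarce in these cells. COL1A1, a chain of the main fibrils of connective tissue with an 8mer, was at 0.199 and 0.289 FPKM in the controls and 0.118 and 0.0996 FPKM after miR-29a-3p (log2 fold change -0.17, adjusted p = 0.177). COL1A2 and COL3A1 lay under the filter, at no more than 0.0417 FPKM in any A549-labelled library. COL4A1 and COL4A2, the common chains of basement membranes, were at 0.408 to 0.814 FPKM in the controls and 0.163 to 0.454 FPKM after miR-29a-3p. They were called lower (-0.28 and -0.35, adjusted p = 0.0188 and 0.0166). The call of COL4A1 was lost without control 1 or either miR-29a-3p library (adjusted p of 0.0506 to 0.0782), and that of COL4A2 without either control or miR-29a-3p library 2 (0.0526 to 0.0749). COL7A1, the collagen of anchoring fibrils, holds an 8mer and was higher, at 2.11 and 1.86 FPKM against 2.88 and 2.64 (0.33, adjusted p = 0.0138). This call was lost without control 2 or miR-29a-3p library 1 (adjusted p = 0.0602 and 0.0661).

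Of 25 tested genes that fold, modify and cross-link collagen, 10 fell and 3 rose, with a median of -0.19. Between 8 and 10 fell and 1 to 3 rose without any one A549-labelled library. LOXL2 and SERPINH1, given above, fell most. COLGALT1, which adds galactose to collagen, went from 22.1 and 22.2 FPKM to 10.7 and 10.2 FPKM (log2 fold change -1.02 ± 0.051, adjusted p = 0.000285). P3H1 went from 7.36 and 6.86 FPKM to 3.59 and 3.31 FPKM. P3H4 went from 4.19 and 4.68 to 2.23 and 2.18 FPKM (-0.76, adjusted p = 0.00138). The lysyl oxidase LOX, with 3 7mer-m8 sites, went from 4.70 and 4.39 FPKM to 1.93 and 2.30 FPKM (-0.83 ± 0.084, adjusted p = 0.00225), and BMP1, which trims procollagen, from 5.35 and 5.25 to 3.63 and 3.80 FPKM (-0.42, adjusted p = 0.00434). The list did not move as one. PLOD3, a lysyl hydroxylase, rose from 17.5 and 16.9 FPKM to 23.9 and 22.9 FPKM (0.42, adjusted p = 0.00303), and the prolyl hydroxylase subunits P4HB and P4HA2 had log2 fold changes of 0.07 and 0.10 (adjusted p = 0.618 and 0.257).

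Basement membranes join laminins, nidogens, perlecan and collagen networks, and microfibrils carry elastin. Of 31 such genes tested, 14 fell and 2 rose, with a median of -0.21, and 13 fell and 0 to 1 rose without any one A549-labelled library. NID1, a linker of laminin and collagen, went from 8.88 and 9.35 FPKM to 2.80 and 2.63 FPKM (log2 fold change -1.45 ± 0.059, adjusted p = 0.00015). THBS1, a matricellular protein that activates TGF-beta, went from 11.2 and 11 FPKM to 4.42 and 4.05 FPKM (-1.21 ± 0.088, adjusted p = 0.000791). Its 3′ UTR holds a 7mer-A1 as the best match. HSPG2, which encodes perlecan, went from 23.3 and 20.4 FPKM to 11.4 and 11.1 FPKM (-0.90 ± 0.066, adjusted p = 0.000835), and MFAP2, a microfibril protein, from 12.5 and 10.5 to 4.91 and 4.53 FPKM (-1.12 ± 0.095, adjusted p = 0.00127). In these 4 genes the groups lay well apart. Over the list 45.2% fell and 6.45% rose, against 8.66% and 7.3% of all genes tested.

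Not all laminin chains were called. The chains LAMA2, LAMC1 and LAMB1 fell, by 1.18, 0.72 and 0.46 on the log2 scale (adjusted p of 0.000559, 0.000682 and 0.0013). LAMC1, shared by many laminins, holds an 8mer and had 33.5 and 30.8 FPKM in the controls against 19.2 and 19.1 FPKM. LAMB2 and LAMA5 had log2 fold changes of -0.06 and -0.12 (adjusted p = 0.539 and 0.171). LAMB3, a chain of epithelial laminin, was higher at 0.23 (adjusted p = 0.0469), a call lost without any one A549-labelled library (adjusted p of 0.0586 to 0.178). The secreted adhesion protein fibronectin (FN1) had 5.81 and 5.53 FPKM in the controls and 7.15 and 6.33 FPKM after miR-29a-3p (0.21, adjusted p = 0.064). SPARC, a collagen-binding protein with a 7mer-m8, fell from 1.20 and 1.10 FPKM to 0.273 and 0.298 FPKM (-0.74 ± 0.075, adjusted p = 0.00236).

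Of 26 tested proteases and inhibitors of matrix turnover, 7 fell (26.9%) and 4 rose (15.4%), against 8.66% and 7.3% of all genes tested. Their median was -0.10. Between 3 and 5 fell and 2 to 3 rose without any one A549-labelled library. MMP2, a gelatinase with a 7mer-m8 that is activated by MMP14, went from 6.70 and 6.17 FPKM to 2.39 and 1.98 FPKM (log2 fold change -1.23 ± 0.098, adjusted p = 0.00106). The membrane protease MMP16, with 1 8mer and 2 7mer-m8 sites, went from 2.75 and 2.71 to 1.47 and 1.60 FPKM (-0.56, adjusted p = 0.00334). MMP1, an interstitial collagenase without a 6mer, had 34.5 and 31.7 FPKM against 21.2 and 19.8 (-0.67 ± 0.11, adjusted p = 0.0111), a call lost without control 1 or miR-29a-3p library 2 (adjusted p = 0.0627 and 0.0622). SERPINE2, a protease inhibitor, had 15.6 and 18.2 FPKM against 9.06 and 10.8 (-0.71, adjusted p = 0.0222), a call lost without either control or miR-29a-3p library 1 (adjusted p of 0.0543 to 0.11).

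In that list, a plasminogen activator and its receptor rose. PLAU, the urokinase that activates plasminogen, rose from 133 and 135 FPKM to 171 and 163 FPKM (log2 fold change 0.32, adjusted p = 0.00459). The urokinase receptor PLAUR had 39.5 and 36.6 FPKM against 52.8 and 61.3 (0.57, adjusted p = 0.00826, or 0.052 without control 2). The metalloprotease inhibitor TIMP1 stood at 209.7 and 209 FPKM in the controls and at 224 and 201 FPKM after miR-29a-3p, so that the groups overlapped (0.02, adjusted p = 0.872).

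Integrins anchor cells to the matrix. Of 16 integrins and collagen receptors tested, 4 fell (25.0%) and 1 rose (6.25%), against 8.66% and 7.3% of all genes tested. Their median was -0.01. Between 2 and 4 fell without any one A549-labelled library, and 2 when the A549-labelled libraries were fitted alone. ITGB1, the beta chain shared by most matrix-binding integrins, holds a 7mer-m8 and went from 70.3 and 61.9 FPKM to 27.8 and 33.8 FPKM (log2 fold change -1.08 ± 0.14, adjusted p = 0.00502). ITGA6, the alpha chain of laminin receptors, went from 20.2 and 20.7 FPKM to 10.5 and 11.7 FPKM (-0.83 ± 0.061, adjusted p = 0.000791). ITGA2, a chain of collagen receptors, had 10.9 and 14.9 FPKM against 21.0 and 23.8, without overlap but with a wide error (0.77 ± 0.32, adjusted p = 0.158). SDC4, a heparan sulfate co-receptor, rose from 86.0 and 88.4 FPKM to 108 and 106 FPKM (0.29, adjusted p = 0.00832).

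**Figure D3:**
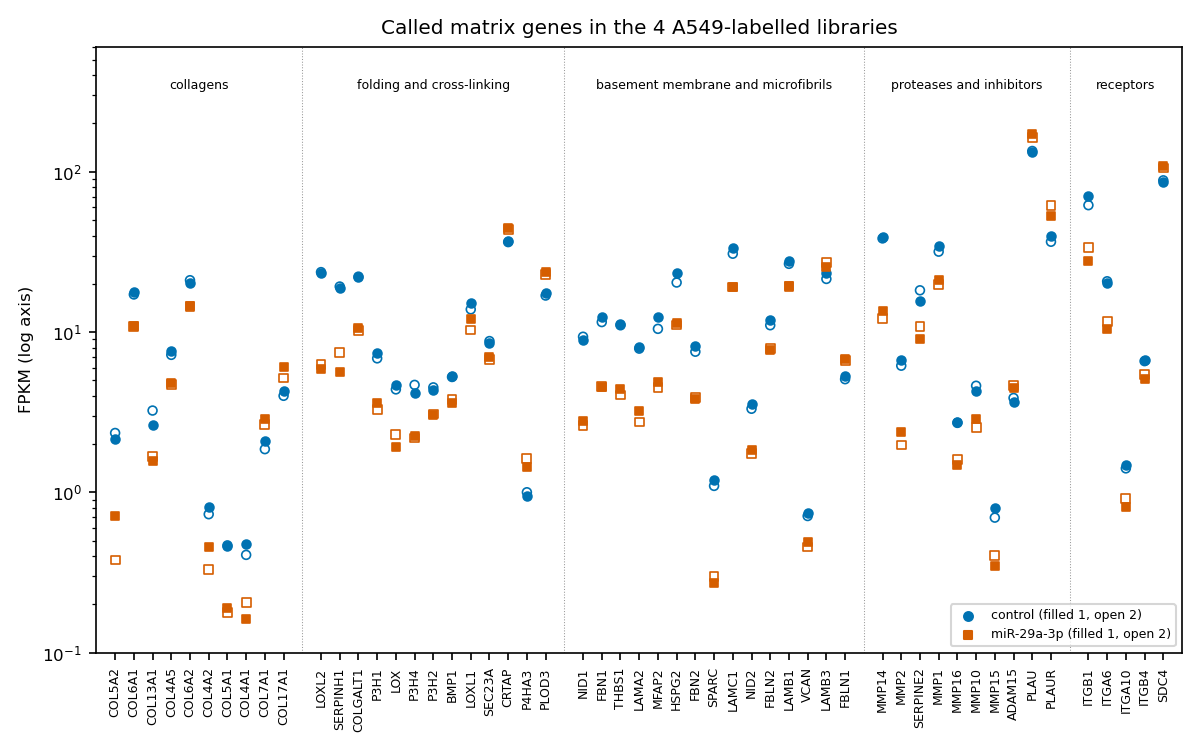
FPKM (vertical log axis) of called genes of 5 matrix lists (collagens, collagen folding, basement membrane, proteases, integrins) in each A549-labelled library, with circles for controls and squares for miR-29a-3p, filled for library 1 and open for library 2. Most squares lie below the circles, as for NID1 (8.88 and 9.35 against 2.80 and 2.63 FPKM), while PLAU, PLOD3 and SDC4 are among those that lie above.

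Genes reported elsewhere as miR-29 targets outside the matrix fell in 18 of 44 cases (40.9%) and rose in 4 (9.09%). The shares over all genes tested were 8.66% and 7.3%, and the median of the list was -0.24. Between 13 and 14 fell and 2 to 3 rose without any one A549-labelled library. The list comes from general knowledge of the field and was chosen with results of these data known. CDK6, a kinase that drives cells through G1, fell most, from 26.2 and 27.8 FPKM to 9.17 and 10.2 FPKM (log2 fold change -1.39 ± 0.092, adjusted p = 0.00061). INSIG1, which holds sterol-sensing proteins in the endoplasmic reticulum, went from 20.8 and 21.0 FPKM to 9.74 and 9.88 FPKM (-1.02 ± 0.11, adjusted p = 0.0028). CTNNBIP1, which blocks beta-catenin from its partner TCF, went from 24.4 and 23.7 FPKM to 12.5 and 11.1 FPKM (-0.97 ± 0.12, adjusted p = 0.00384). In these 3 genes both treated libraries lay well below either control, and each holds at least 1 7mer-m8.

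The list holds enzymes of chromatin and of DNA methylation. DOT1L, a histone methyltransferase with 5 7mer-m8 sites, went from 6.41 and 6.36 FPKM to 3.39 and 3.54 FPKM (log2 fold change -0.72 ± 0.056, adjusted p = 0.000994). TET3, an enzyme that oxidises methylcytosine and holds 3 8mers and 7 7mer-m8 sites, went from 6.29 and 6.03 FPKM to 4.14 and 4.05 FPKM, and TDG, which cuts the oxidised base out, from 1.96 and 1.86 to 0.734 and 0.795 FPKM. The methyltransferase DNMT3B had 3.47 and 4.08 FPKM against 2.29 and 2.23 (-0.55, adjusted p = 0.0101, or 0.0544 without miR-29a-3p library 2). DNMT3A, with 4 7mer-m8 sites, had 2.62 and 2.22 FPKM against 1.83 and 1.89 and was not called (-0.26, adjusted p = 0.0873). The groups did not overlap in any of these 5 genes, as in 59.0% of all genes tested.

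CAV2, a protein of membrane caveolae with an 8mer, went from 10.9 and 10.6 FPKM to 5.90 and 7.33 FPKM (log2 fold change -0.63, adjusted p = 0.00701). MCL1 and AKT2 also hold an 8mer and were not called. MCL1, which protects mitochondria in apoptosis, had 40.9 and 41.9 FPKM against 35.1 and 36.6 (-0.20, adjusted p = 0.0552). The kinase AKT2 had 11.2 and 9.97 FPKM against 8.82 and 8.81 (-0.24, adjusted p = 0.0529). In both genes the treated libraries lay under both controls, but the groups did not overlap in 59.0% of all genes tested. VEGFA, the vascular growth factor, rose from 1.20 FPKM in both controls to 2.35 and 2.20 FPKM (0.57 ± 0.067, adjusted p = 0.00372) and holds no 6mer in the 3′ UTR searched.

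Of 40 mitosis genes tested 21 fell and 0 rose, with a median of -0.27, and between 7 and 11 fell without any one A549-labelled library. Besides MYBL2 and RCC2, CCNA2, the cyclin of S phase and mitotic entry, went from 35.4 and 35.6 FPKM to 22.2 and 21.3 FPKM (log2 fold change -0.68 ± 0.055, adjusted p = 0.00106). TOP2A, which untangles chromosomes, went from 66.9 and 70.5 FPKM to 42.0 and 46.4 FPKM (-0.62 ± 0.059, adjusted p = 0.00178), and the kinesin KIF20A from 30.9 and 30.8 to 20.5 and 19.7 FPKM (-0.59 ± 0.053, adjusted p = 0.00153). The mitotic kinase PLK1 had 19.3 and 19.0 FPKM against 11.5 and 10.2 (-0.77 ± 0.15, adjusted p = 0.0194) and lost its call without any one A549-labelled library (0.0624 to 0.0943). PLK1 had 3.03 and 4.54 FPKM in the H1299-labelled controls, which share the estimate of spread. The kinase AURKA had 28.7 and 26.2 FPKM against 27.4 and 27.1 (-0.01, adjusted p = 0.963). The proliferation marker MKI67 overlapped as well, with 25.9 FPKM in control 1, 8.47 in control 2 and 20.6 and 18.4 after miR-29a-3p (adjusted p = 0.626). At an unadjusted limma p under 0.05, 28 mitosis genes were lower and 0 higher. Of all 14635 genes tested, 4583 passed that level in either direction. By the adjusted p, 52.5% of the mitosis genes fell, against 8.66% of all genes tested. The absence of a risen mitosis gene did not hold in every fit that left out an A549-labelled library.

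Of 41 tested genes of DNA replication and nucleotide synthesis 13 fell and 0 rose, with a median of -0.17, and between 4 and 7 fell without any one A549-labelled library. GINS2, a subunit of the replicative helicase, went from 14.5 and 15.7 FPKM to 9.06 and 8.43 FPKM (log2 fold change -0.72 ± 0.085, adjusted p = 0.0038). RRM2, the regulated subunit of ribonucleotide reductase, went from 16.1 and 17.3 FPKM to 11.7 and 12 FPKM, and MCM2, another helicase subunit, from 35.6 and 34.5 to 27.3 and 26.6 FPKM (-0.37, adjusted p = 0.00463). MCM3 of the same helicase had 48.1 and 47.6 FPKM against 49.6 and 46.1 (adjusted p = 0.992). In the replication list 31.7% fell and 0 rose, against 8.66% and 7.3% of all genes tested. Of 23 G1 cyclins, kinases and inhibitors 4 fell (17.4%) and 2 rose (8.7%), against 8.66% and 7.3% of all genes tested. Their median was at 0. Between 2 and 3 fell and 0 to 1 rose without any one A549-labelled library. Beside CDK6, the inhibitor CDKN2C of that kinase fell from 18.9 and 18.4 FPKM to 12.8 and 12.1 FPKM (-0.55 ± 0.064, adjusted p = 0.00363). Cyclin D1 (CCND1), the partner of CDK6, was higher at 57.3 and 61.2 FPKM against 47.1 and 47.2 (0.32, adjusted p = 0.0122), a call lost without either control or miR-29a-3p library 2 (0.0587 to 0.0602).

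Tubulins form microtubules, and small GTPases steer actin. Of 36 such genes tested 10 fell (27.8%) and 1 rose (2.78%), against 8.66% and 7.3% of all genes tested. Their median was -0.11. When the A549-labelled libraries were fitted alone, 8 of 35 fell and 1 rose. TUBA1A, an alpha tubulin, went from 42.5 and 45.0 FPKM to 16 and 14 FPKM (log2 fold change -1.48 ± 0.078, adjusted p = 0.000314), and TUBB2A, a beta tubulin with a 7mer-m8, from 38.6 and 36.3 to 18.9 and 19.9 FPKM (-0.91, adjusted p = 0.000608). Tubulin genes are near copies of each other, so reads may be split between them and these values are uncertain. RHOA, which drives actin contraction, went from 114 and 121 FPKM to 77.8 and 77.5 FPKM (-0.59 ± 0.048, adjusted p = 0.00109). CDC42, which drives actin protrusions and holds an 8mer and a 7mer-m8, went from 41.1 and 44.1 FPKM to 26.6 and 29 FPKM. The endosomal GTPase RHOB rose from 17.6 and 17.1 FPKM to 32.7 and 36.3 FPKM (0.95 ± 0.056, adjusted p = 0.000411). Beta actin (ACTB) overlapped between the groups, at 225 and 239 FPKM against 228 and 206.

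Of 23 epithelial junction and keratin genes 8 fell and 1 rose, with a median of -0.25, and between 3 and 4 fell without any one A549-labelled library. KRT80, an epithelial keratin with a 7mer-m8, went from 15.9 and 15.3 FPKM to 6.50 and 6.41 FPKM (log2 fold change -1.16 ± 0.10, adjusted p = 0.00156), and the desmosome plaque protein DSP from 8.22 and 7.58 to 5.48 and 5.49 FPKM (-0.46, adjusted p = 0.00394). The keratin KRT19 rose from 1.50 and 1.66 FPKM to 3.13 and 2.77 FPKM (0.61, adjusted p = 0.00277). E-cadherin (CDH1) stood at 0.146 and 0.135 FPKM in the controls and was not called (-0.08, adjusted p = 0.441). In this list 34.8% fell and 4.35% rose, against 8.66% and 7.3% of all genes tested. The TGF-beta pathway had 4 genes that fell (14.8%) and 2 that rose (7.41%) of 27, against 8.66% and 7.3% of all genes tested. The median of this pathway was -0.11. Between 2 and 4 fell and 1 to 2 rose without any one A549-labelled library. Its ligand TGFB2 holds a 7mer-m8 and went from 1.75 and 1.56 FPKM to 0.535 and 0.496 FPKM (-0.81 ± 0.064, adjusted p = 0.00103). TGFB1, the more abundant ligand, had 123 and 126 FPKM against 126 and 118 (-0.03, adjusted p = 0.699). SMURF1, a ubiquitin ligase that removes TGF-beta receptors, holds a 7mer-m8 and rose from 20.2 and 19.6 FPKM to 26.9 and 26.4 FPKM (0.41, adjusted p = 0.00256).

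Interferons are secreted when sensors detect foreign RNA and induce effectors that block viruses. Of 54 interferon-stimulated effectors tested 35 rose (64.8%) and 2 fell (3.7%), against 7.3% and 8.66% of all genes tested. Their median log2 fold change was 0.46. Between 25 and 28 rose without any one A549-labelled library. IFIT2, which binds viral RNA, rose from 60.6 and 63.1 FPKM to 177 and 169.6 FPKM (1.47 ± 0.043, adjusted p = 4.92e-05), and its partner IFIT3 from 156 and 162 to 477 and 479 FPKM. IFI44, an interferon-induced GTP-binding protein, rose from 17.7 and 19.0 FPKM to 48.0 and 50.7 FPKM (1.38 ± 0.074, adjusted p = 0.000347). The controls themselves were not low, with ISG15, a ubiquitin-like protein, at 354 and 326 FPKM against 820.1 and 837 FPKM.

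USP18, which removes ISG15 from proteins and dampens the interferon receptor, rose from 16.3 and 16.9 FPKM to 44.5 and 40.4 FPKM (log2 fold change 1.30 ± 0.067, adjusted p = 0.000314). HERC5, the ligase that attaches ISG15, rose from 34.7 and 36.9 FPKM to 81.4 and 83.3 FPKM (1.18 ± 0.053, adjusted p = 0.000212). DDX60, a helicase that aids RNA sensing, rose from 12.2 and 12.8 FPKM to 28.9 and 31.2 FPKM (1.20 ± 0.066, adjusted p = 0.000349), and ZC3HAV1, a protein that destroys viral RNA, from 14.2 and 14.3 to 27.2 and 27.1 FPKM (0.89 ± 0.043, adjusted p = 0.000272). In these 4 genes the libraries of a group lay close together and the groups were far apart. The GTPase GBP2 fell from 1.83 and 1.84 FPKM to 0.829 and 0.759 FPKM (-0.66, adjusted p = 0.0083). The chemokine CXCL10 had 41.6 and 45.8 FPKM against 29 and 33.5 (-0.47, adjusted p = 0.0153), a call lost without control 2 or miR-29a-3p library 1 (0.0806 and 0.0616).

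Upstream of these effectors, 8 of 27 RNA sensors, interferons, receptors and signalling genes rose (29.6%) and 1 fell (3.7%), with a median of 0.18. Over all genes tested 7.3% rose and 8.66% fell. DDX58, which encodes the RNA sensor RIG-I, rose from 34.7 and 35.9 FPKM to 89.1 and 91.4 FPKM (log2 fold change 1.33 ± 0.045, adjusted p = 8.52e-05), and IFIH1, the sensor MDA5, from 39.3 and 42.1 to 93.5 and 95.8 FPKM (1.20 ± 0.056, adjusted p = 0.00022). ZNFX1, a helicase that senses viral RNA at mitochondria, rose from 15.8 FPKM in both controls to 42.9 and 41.6 FPKM (1.37 ± 0.062, adjusted p = 0.000212). These sensors are interferon-stimulated themselves. IFNB1, which encodes interferon beta, had 2.10 and 1.55 FPKM against 3.41 and 3.86 (0.72 ± 0.13, adjusted p = 0.0148), a call lost without control 2 or either miR-29a-3p library (0.0518 to 0.0757). The receptor chain IL10RB, with a 7mer-m8, fell from 10.1 and 11.1 FPKM to 7.43 and 7.95 FPKM (-0.41, adjusted p = 0.00819).

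Of 20 genes of MHC class I, which shows peptides to T cells, 7 rose (35.0%) and 0 fell. The shares over all genes tested were 7.3% and 8.66%, and the median of the list was 0.25. Between 4 and 5 rose without any one A549-labelled library. HLA-E, a class I molecule read by natural killer cells, rose from 44.5 and 43.9 FPKM to 71.3 and 72.8 FPKM (log2 fold change 0.69 ± 0.037, adjusted p = 0.000347). The peptide transporter subunit TAP1 rose from 15.7 and 14.4 FPKM to 22.2 and 21.6 FPKM (0.52, adjusted p = 0.00344), and HLA-B from 50.4 and 49.2 to 63.1 and 62.3 FPKM (0.33, adjusted p = 0.00456). The common light chain B2M overlapped, at 50.4 and 54.2 FPKM against 44.7 and 85.8 (adjusted p = 0.595). HLA genes resemble each other closely and their reads may be split.

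NF-kB is a family of transcription factors that induces inflammatory genes. Of 34 NF-kB subunits, feedback genes and inflammatory mediators tested 18 rose (52.9%) and 0 fell, with a median of 0.47. Over all genes tested 7.3% rose and 8.66% fell. BIRC3, an apoptosis inhibitor that relays TNF signals, rose from 8.57 and 7.62 FPKM to 18.2 and 21.0 FPKM (log2 fold change 1.18 ± 0.098, adjusted p = 0.00118). ICAM1, an adhesion molecule for leukocytes, rose from 33.6 and 31.5 FPKM to 60.8 and 58.0 FPKM (0.85 ± 0.067, adjusted p = 0.00105). TRAF1 and SOD2, a TNF receptor adaptor and a mitochondrial superoxide dismutase, rose although each holds a 7mer-m8. TRAF1 went from 23.6 FPKM in both controls to 43.7 and 42.6 FPKM, and SOD2 from 5.73 and 5.37 to 10.5 and 10.9 FPKM (0.84 for each, adjusted p = 0.000314 and 0.000791). The subunit NFKB2 rose from 24.6 and 23.7 FPKM to 41.6 FPKM in both treated libraries (0.76 ± 0.039, adjusted p = 0.000314), while the subunit RELA was not called (0.11, adjusted p = 0.545). The chemokine CCL5 differed more within the groups than between them, at 55.6 and 88.9 FPKM against 70.4 and 99.6 (adjusted p = 0.594).

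Genes of the integrated stress response rose in 75.7% of those tested, against 7.3% of all genes tested. This pathway answers amino acid shortage and other stresses through the transcription factor ATF4, which induces amino acid synthesis and transport. Of 37 tested 28 rose and 0 fell, with a median of 0.42, and between 18 and 21 rose without any one A549-labelled library. CHAC1, which degrades glutathione, rose from 2.70 and 2.61 FPKM to 9.85 and 9.07 FPKM (log2 fold change 1.51 ± 0.082, adjusted p = 0.000349). DDIT4, an mTORC1 inhibitor, rose from 28.8 and 27.3 FPKM to 59.9 and 63.0 FPKM (1.10 ± 0.065, adjusted p = 0.000411). DDIT3, the transcription factor CHOP, rose from 3.98 and 3.58 FPKM to 8.33 and 9.27 FPKM (1.04 ± 0.083, adjusted p = 0.00106). PPP1R15A, a phosphatase subunit that ends the response, rose from 19.4 and 19.0 FPKM to 37.7 and 38.2 FPKM (0.95 ± 0.042, adjusted p = 0.000207).

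The list also holds enzymes of amino acid synthesis, tRNA charging and transport. ASNS, asparagine synthetase, rose from 8.82 and 7.96 FPKM to 16.7 FPKM in both treated libraries (log2 fold change 0.92 ± 0.058, adjusted p = 0.000561). PSAT1 of serine synthesis rose from 38.2 and 40.8 FPKM to 58.7 and 59.1 FPKM (0.56, adjusted p = 0.00137), GARS1, which charges glycine onto its tRNA, from 38.3 and 40.4 to 59.5 and 58.9 FPKM (0.58, adjusted p = 0.000904), and SLC7A1, a transporter of basic amino acids, from 11.6 and 11.3 to 17.0 and 16.9 FPKM (0.52, adjusted p = 0.000994). ATF4 had 60.0 and 60.7 FPKM against 80.6 and 72.3 (0.33, adjusted p = 0.0159), a call lost without either control or miR-29a-3p library 1 (0.0571 to 0.0729). The transporter SLC7A5 had 43.4 and 39.5 FPKM against 39.9 and 38.9 (-0.07, adjusted p = 0.406). The related factor ATF3 had 0.759 and 0.748 FPKM against 3.66 and 1.72 and was not called (1.02 ± 0.44, adjusted p = 0.174). Its wide error also draws on the H1299-labelled libraries, which share the estimate of spread.

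Of 26 tested chaperones and sensors of the endoplasmic reticulum 6 rose and 3 fell, with a median of 0.01, and 2 to 3 rose and 1 fell without any one A549-labelled library. HSPA5, the main chaperone of that compartment, holds an 8mer and had 220.4 and 224 FPKM against 254 and 247 (log2 fold change 0.17, adjusted p = 0.0214), a call lost without any one A549-labelled library (0.059 to 0.101). ERN1, the sensor IRE1, rose from 2.31 and 2.40 FPKM to 3.73 and 3.37 FPKM (0.44, adjusted p = 0.0055), and its target XBP1 was not called (0.28, adjusted p = 0.398). CANX, a chaperone of glycoproteins, fell from 65.9 and 64.5 FPKM to 52.3 and 54.6 FPKM (-0.28, adjusted p = 0.00751). In this list 23.1% of the genes rose and 11.5% fell, against 7.3% and 8.66% of all genes tested. The share that fell was thus near that of all genes.

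Of 14 genes of the BCL2 family, 2 rose and 1 fell, and 0 to 1 rose without any one A549-labelled library. BAK1, given above, fell, and PMAIP1, which neutralises MCL1, had 42.3 and 27.6 FPKM against 70.0 and 74.4 (log2 fold change 1.06 ± 0.17, adjusted p = 0.0119), a call lost without either miR-29a-3p library (0.0558 and 0.0643). BCL2L1, a protector of mitochondria, was not called (0.00, adjusted p = 0.993). In the BCL2 family 14.3% of the genes rose and 7.14% fell, against 7.3% and 8.66% of all genes tested. Among 22 immediate early genes 6 rose (27.3%) and 1, IER2, fell (4.55%), against 7.3% and 8.66% of all genes tested. When the A549-labelled libraries were fitted alone, 5 of 20 rose and 1 fell. EGR1, a transcription factor induced by growth signals, rose from 6.79 and 7.74 FPKM to 18.7 and 17.0 FPKM (1.19 ± 0.085, adjusted p = 0.000791), and JUNB from 53.1 and 55.7 to 91.7 and 94.7 FPKM (0.77 ± 0.056, adjusted p = 0.000791). FOSL1 of the same AP-1 family overlapped (-0.04, adjusted p = 0.729).

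Calls in lipid synthesis went both ways. Of 29 tested 5 rose (17.2%) and 3 fell (10.3%), against 7.3% and 8.66% of all genes tested, with a median of 0.07. On the fatty acid side, FASN, the fatty acid synthase, rose from 150.1 and 139 FPKM to 214 and 217 FPKM (log2 fold change 0.57 ± 0.047, adjusted p = 0.00113), SCD, which desaturates fatty acids, from 993 and 994 to 1281 and 1277 FPKM (0.36, adjusted p = 0.00141), and ACLY, which supplies acetyl-CoA, from 52.2 and 49.5 to 67.2 and 66.3 FPKM (0.39, adjusted p = 0.00273). On the sterol side, HMGCS1, with a 7mer-m8, fell from 20.8 and 19.2 FPKM to 10.5 and 11.6 FPKM (-0.80 ± 0.099, adjusted p = 0.00441) beside INSIG1, whereas MSMO1 of the same branch rose from 7.32 and 7.48 to 11 and 13.3 FPKM (0.64, adjusted p = 0.00583).

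Of 21 genes of microRNA processing and silencing 2 rose and 2 fell, and 1 to 2 rose and 1 fell without any one A549-labelled library. The 2 rises and 2 falls, 9.52% each, were near the 7.3% that rose and 8.66% that fell over all genes tested. XPO5, which exports microRNA precursors and holds a 7mer-m8, fell from 17.5 and 17.2 FPKM to 13.5 and 12.2 FPKM (log2 fold change -0.41, adjusted p = 0.00681). TNRC6A, the Argonaute partner that recruits RNA decay enzymes, rose from 4.51 and 4.23 FPKM to 6.53 and 6.43 FPKM (0.48, adjusted p = 0.00302). AGO2, the Argonaute that can cut its target, had 11.9 and 11 FPKM against 9.59 and 9.11 (-0.27, adjusted p = 0.0313), a call lost without any one A549-labelled library (0.053 to 0.126). DICER1, DROSHA and AGO1 overlapped between the groups (0.06, 0.02 and 0.01). Of 17 circadian clock genes 5 rose (29.4%) and 1 fell (5.88%), against 7.3% and 8.66% of all genes tested. Their median was 0.11. When the A549-labelled libraries were fitted alone, 4 rose and 0 fell. Beside CIPC, the clock repressor BHLHE40 rose from 17.2 and 16.4 FPKM to 36.5 FPKM in both treated libraries (1.07 ± 0.042, adjusted p = 0.00014), and the nuclear receptor NR1D1 from 4.55 and 4.37 to 7.21 and 6.68 FPKM (0.54, adjusted p = 0.00212), while PER1 overlapped (0.02, adjusted p = 0.851).

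Of 29 cytosolic ribosomal protein genes 3 rose and 2 fell, a share near the 16.0% called over all genes tested, with a median of 0.08. Between 1 and 2 rose and 0 fell without any one A549-labelled library. RPS27 rose from 12.2 and 12.4 FPKM to 17.3 FPKM in both treated libraries (log2 fold change 0.46, adjusted p = 0.00144), and ribosomal protein genes have many pseudogene copies that can take their reads. None of the 13 mitochondrially encoded mRNAs was called with limma, though 5 were lower and 1 higher at an unadjusted p under 0.05. Of all 14635 genes tested, 4583 passed that level. The median of the mitochondrial mRNAs was -0.13. Of 14 reference genes only GAPDH was called, at 1216 and 1202 FPKM against 1374 and 1332 (0.16, adjusted p = 0.032), and the call was lost without any one A549-labelled library (0.0789 to 0.144). The median of the reference genes was -0.02.

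**Figure D4:**
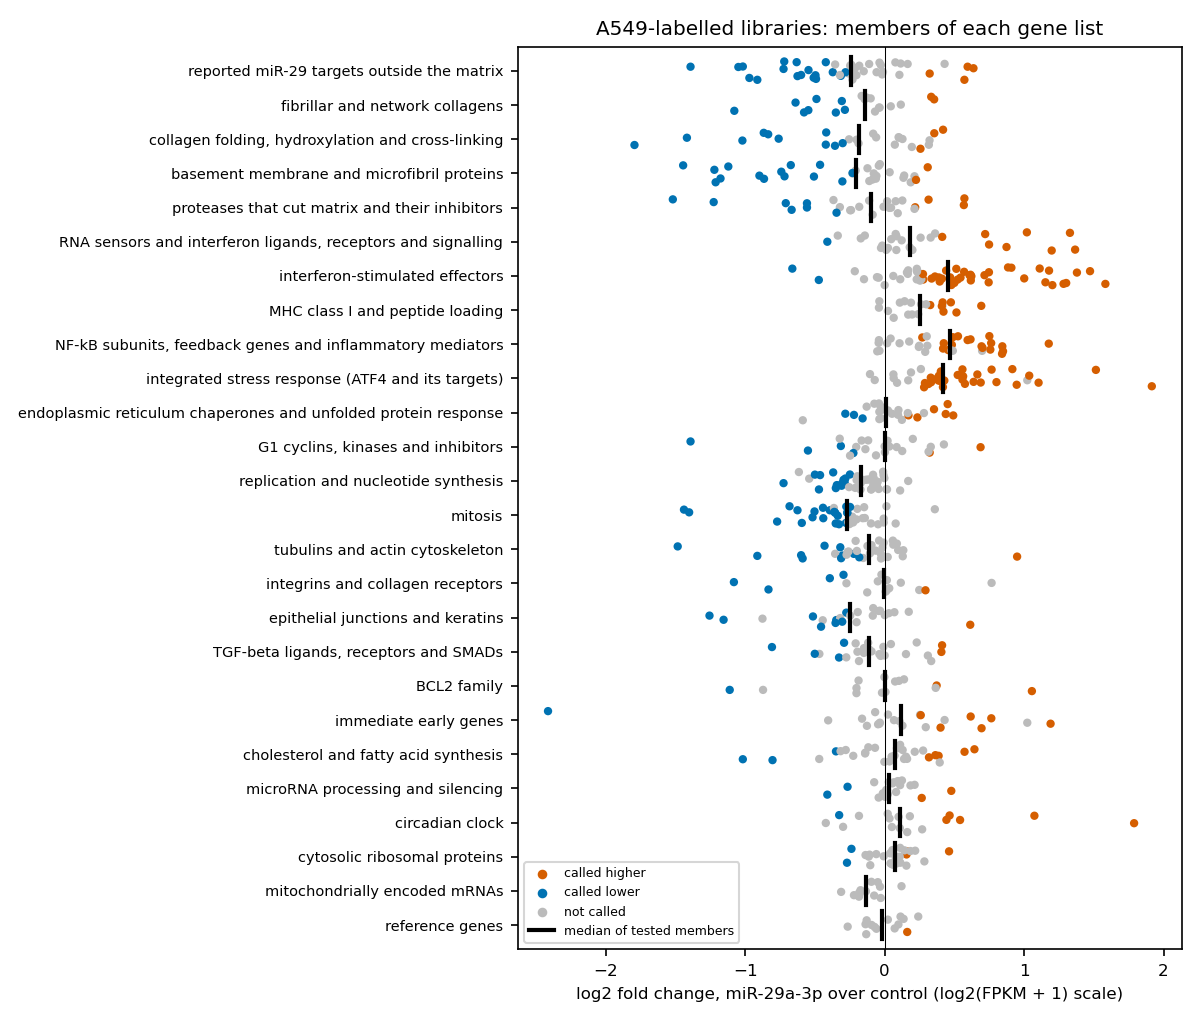
Log2 fold change (horizontal axis, log2(FPKM + 1) scale) of each tested member of the gene lists in the A549-labelled libraries, with orange for called higher, blue for called lower, grey for not called and a black bar at the median of each list. The medians are highest for NF-kB genes (0.47), interferon-stimulated effectors (0.46) and the integrated stress response (0.42) and lowest for mitosis (-0.27) and epithelial genes (-0.25).

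The H1299-labelled libraries, compared in the same fit, gave a measure of how far the response was that of the A549-labelled libraries. The 2 comparisons share no library, but they share the estimate of spread of each gene. Their calls are therefore not independent, and a gene with a small spread is more readily called in both. The difference between the responses (A549-labelled minus H1299-labelled log2 fold change) was called for 5464 of the 14635 genes (37.3%). Among the 2336 genes called under the A549 label, 1411 differed (60.4%). That share rests in part on the same A549-labelled libraries that made the calls. Of the 1068 that rose, 430 also rose under the H1299 label (40.3% of these and 11.7% of the 3677 that rose there), and 251 fell there (23.5%). Of the 1268 that fell, 596 also fell there (47.0% of these and 16.4% of the 3635 that fell there), and 300 rose there (23.7%). Over all genes tested, 25.1% rose and 24.8% fell under the H1299 label, 50.0% in all, so the shares that went the opposite way were near those of all genes.

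The 6 genes whose sites are printed above fell by like amounts under both labels in some cases only. BAK1 had a log2 fold change of -0.80 under the H1299 label, and the difference of -0.31 was not called (adjusted p = 0.148). PPIC and FBN1 also fell there, by 0.90 and 0.89, less than under the A549 label (difference -0.38 and -0.33, both called). CLDN1 fell by far more, from 132 FPKM in both H1299-labelled controls to 10.9 and 10.8 FPKM (difference 2.23 ± 0.069, adjusted p = 3.42e-05). MYBL2 went the other way there, from 4.50 and 5.42 FPKM to 9.06 and 9.19 FPKM (0.77, adjusted p = 0.000324), so that the responses differed by -2.21 ± 0.11 (adjusted p = 8.65e-05). LAMA2 was near 0 in the H1299-labelled libraries, at most 0.165 FPKM (difference -1.11). LOXL2, RCC2 and LAMC1 fell under both labels, with differences of 0.16, 0.16 and 0.00 that were not called (adjusted p = 0.138, 0.0614 and 1).

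The largest positive differences included genes of the stress response that rose under the A549 label and fell under the other. Of the 37 genes of that list, 28 rose and 0 fell under the A549 label against 4 and 26 under the H1299 label, where the median was -0.96. The difference was called for 34 of them. TRIB3, a pseudokinase that restrains ATF4, stood at 8.88 and 8.48 FPKM in the A549-labelled controls and at 16.9 and 14.9 FPKM after miR-29a-3p. In the H1299-labelled libraries it fell from 144 and 135 FPKM to 15.5 and 16 FPKM, and the difference was 3.87 ± 0.097 (adjusted p = 1.44e-05). PPP1R15A fell there from 219 FPKM in both controls to 42.7 and 45.1 FPKM (difference 3.24 ± 0.059, adjusted p = 1.06e-05), DDIT3 from 20 and 21.2 to 2.88 and 3.30 FPKM (3.44) and the secreted STC2 from 165 and 164 to 30.3 and 31.1 FPKM (3.05). The H1299-labelled controls lay well above the A549-labelled controls in all 4 genes. The antisense gene SLC9A3-AS1 and UPP1, a uridine phosphorylase, followed with 3.18 and 2.78.

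The largest negative differences held genes of DNA synthesis. All 41 replication genes rose under the H1299 label, and all 41 differed. RRM2 fell from 16.1 and 17.3 FPKM to 11.7 and 12 FPKM under the A549 label and rose from 0.671 and 0.806 FPKM to 9.94 and 9.35 FPKM under the other (difference -3.08 ± 0.092, adjusted p = 3.42e-05). TK1, thymidine kinase, and PCLAF, a partner of PCNA, differed by -2.51 and -2.39, but their calls under the A549 label were unstable. That of TK1 was lost without any one A549-labelled library (adjusted p of 0.0796 to 0.16) and that of PCLAF without either control or miR-29a-3p library 2 (0.0775 to 0.111). ALDH3A1, an aldehyde dehydrogenase, had 16.5 and 17.2 FPKM against 22.4 and 19.9 in the A549-labelled libraries, a call lost without either control or miR-29a-3p library 1 (0.0717 to 0.0972). In the H1299-labelled libraries it rose from 37.1 and 38.9 FPKM to 599.9 and 588 FPKM (difference -3.62 ± 0.088). The metallothionein MT1X differed by -2.56 (its fall of 0.42 under the A549 label was lost without control 2, adjusted p = 0.0518) and IER2 by -2.89.

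**Figure D5:**
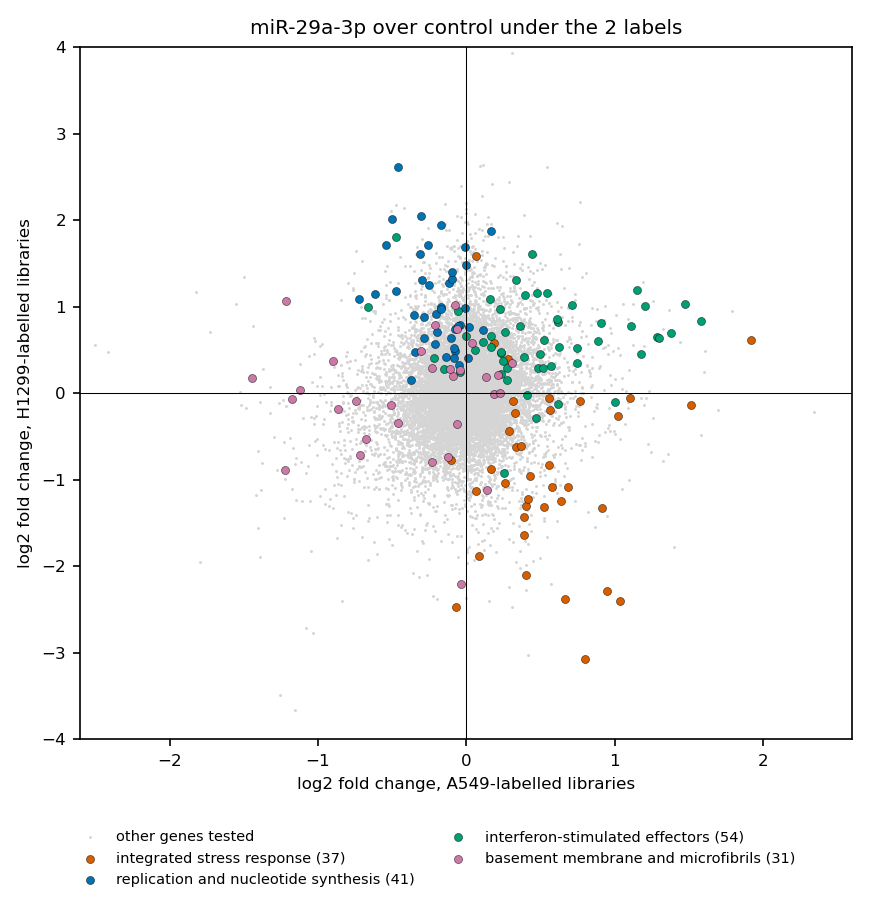
Log2 fold change of miR-29a-3p over control in the A549-labelled libraries (horizontal axis) and in the H1299-labelled libraries (vertical axis), with 1 point for each gene tested, 4 gene lists in colour and other genes in grey. The stress response genes lie mostly to the right and below 0 and the replication genes above 0 on the vertical axis, with 2 genes outside the axes.

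Some genes were listed at 0 in both libraries of 1 A549-labelled group and at 1 FPKM or more in both of the other, which was the case for 6 genes. The read-through transcripts ISY1-RAB43 and EEF1E1-BLOC1S5 were listed at 0 in the controls and at 2.93 and 5.58 FPKM and 1.21 and 2.32 FPKM after miR-29a-3p. The pseudogene HNRNPA1P41 was at 2.03 and 2.61 FPKM in the controls and listed at 0 in the treated libraries, and so was AC092329.1, at 1.50 and 1.22 FPKM in the controls. The call of EEF1E1-BLOC1S5 (adjusted p = 0.0479) was lost without any one A549-labelled library, that of HNRNPA1P41 (0.0124) without control 2 or either miR-29a-3p library, and ISY1-RAB43 was not called (0.0562). Reads of such transcripts overlap those of other genes, a listed 0 can be a failed estimate, and no fold is given.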

How the data were processed

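RNA sequencing of 8 libraries (2 cell line labels, control microRNA or miR-29a-3p, 2 libraries each) was used. The deposited values are FPKM, per the file headers, 1 for each gene in a library. Per the labels' protocols, TRIzol was used for RNA extraction and a VAHTS kit for the libraries. StringTie and GRCh38 are named in the submitters' processing notes. The aligner, all versions, the annotation and the strand setting were not given in the sources used here. FPKM values are not counts, so no count model was used.

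Log2(FPKM + 1) values of genes at 1 FPKM or more in at least 2 of 8 libraries were fitted with limma 3.58.1 in R 4.3.3 as 4 group means, with a variance trend and Benjamini-Hochberg adjustment over 14635 genes at 0.05. The fit had 4 residual degrees of freedom, all 8 libraries sharing the estimate of spread. A gene absent from one line's block was taken as 0. Fold changes are differences of log2(FPKM + 1). The fit was run on simulated data only as a check of the code. The noise of the simulation came from the spread of these same libraries, so the rate of false calls here was not tested. Tables were made with Python 3.11.15, pandas 2.3.3 and numpy 2.4.6. Seed matches were searched in the 3′ UTR of the transcript with the longest coding sequence in GENCODE 29, which held 31105 of the 31461 gene identifiers. The longest 3′ UTR had been planned, and the change was made after seeing the annotation. Depth was estimated from the step between low FPKM values, which were whole fragments within 0.02 for 87.1 to 93.1% of values. It limits low genes most, since 1 fragment is then a large part of the value. Replicates differed by more than sampling noise (chi-square per degree of freedom 2.69 and 3.89 under the A549 label), so none was a copy of another's reads. Whether they came from separate cultures cannot be told from this.

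Genes named were the 15 lowest and 15 highest called genes with a group mean of at least 5 FPKM and no overlap, 8 lowest and 4 highest with an 8mer, up to 4 largest per list, the 6 largest differences each way, up to 4 listed at 0 in 1 group, miR-29 genes and other list members. Some genes that this rule names are not reported here or drawn by name. The gene lists and members were chosen with earlier results of these data known. Libraries of the same number shared little deviation between control and treated groups (correlation of deviations 0.0176 and -0.0109 under the 2 labels). This cannot show whether their cultures were paired. Alternatives were pseudocounts of 0.1 and 0.5, no filter, a mean of at least 5 FPKM, median-ratio rescaling, no variance trend, the A549-labelled libraries alone, a replicate block, each library left out and other 3′ UTRs.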

Additional observations from a re-analysis of the deposited data

Results flagged for a closer look

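The response to miR-29a-3p differed between the A549-labelled and H1299-labelled libraries, by limma's test of the difference, for 5464 of 14635 genes. The values are the A549-labelled minus the H1299-labelled log2 fold change. Among the genes with printed sites, the difference was -2.21 for MYBL2, -0.38 for PPIC, -0.33 for FBN1, -1.11 for LAMA2 and 2.23 for CLDN1. Among the genes called under the A549 label with the largest differences, it was 3.87 for TRIB3, 3.44 for DDIT3, 3.24 for PPP1R15A, 3.18 for SLC9A3-AS1, 3.05 for STC2 and 2.78 for UPP1. It was -3.62 for ALDH3A1, -3.08 for RRM2, -2.89 for IER2, -2.56 for MT1X, -2.51 for TK1 and -2.39 for PCLAF. No group had 4 or more libraries, so no library was tested as standing apart from its group.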

How the results depend on the processing

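The count of called genes under the A549 label was the result that depended most on the libraries used. It was 2336 as reported and 1066 to 1212 with one A549-labelled library left out, against 1878 to 1937 with one H1299-labelled library left out. Such a fit leaves 1 library in a group, which is then assumed to vary like the others. It was 1365 when only the 4 A549-labelled libraries were fitted, 1261 with the library number as a replicate block, and 1598 to 2248 under each other alternative run. Whether the library numbers pair the samples is not known. The count of differences between labels was 5464 as reported, 2984 at a mean of at least 5 FPKM, where 6085 genes were tested, and 4426 to 5542 under the others. The median log2 fold change over genes holding an 8mer or 7mer-m8 lay between -0.094 (longest 3′ UTR) and -0.154 (pseudocount of 0.1), against -0.113 as reported. Of 146 called genes named, 118 kept the call under each alternative fitted, 28 lost it under at least 1, and 0 changed direction. Depth limits genes under 1 FPKM most, of which 52 of 1528 were called.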
